A study of Mus musculus with 12 samples.

Results

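PPAR-gamma and lipid uptake genes were followed across 12 whole lungs. The 10 members are *Pparg*, *Plin2*, *Fabp4*, *Fabp5*, *Lpl*, *Cd36*, *Acsl1*, *Scd1*, *Adipoq* and *Angptl4*, matched by gene symbol among the 55487 genes of the count table. All 10 were found once and all 10 passed the filter on low counts. The lungs came from C57BL/6J mice that were all miR-30a-/-, so the controls carried the deletion too. Of these mice, 3 males and 3 females were exposed to hyperoxia (95% FiO2) from postnatal day (PND) 1 to PND 5 and recovered in room air, and 3 males and 3 females stayed in room air. Lungs were taken on PND 21, when the mice were no longer breathing high oxygen. The knockout line was made with CRISPR/Cas9 by removing the whole *miR-30a* gene. Wild-type lungs were not analysed here, so nothing below compares genotypes.

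PPAR-gamma, the protein of *Pparg*, is a nuclear receptor that is switched on by fatty acids and pairs with RXR on DNA. In fat cells it drives the genes for fatty acid uptake and storage. In the lung it is known from alveolar macrophages, which need it to clear surfactant lipid, from lipofibroblasts, which hold neutral lipid beside the alveolar type 2 cells, and from type 2 cells, which make surfactant. Capillary endothelium takes up fatty acids through CD36, so that several cell types contribute to each transcript in a whole lung. In bulk RNA, fewer cells of a type and less RNA per cell cannot be told apart.

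With the sexes averaged, 0 of the 10 members were called between hyperoxia-exposed and room air lungs (edgeR's quasi-likelihood test, with p adjusted after Benjamini-Hochberg under 0.05 and a change of more than 1.5-fold), where 0.0415% of the 45828 genes tested were called. Before adjustment, 3 members had a p under 0.05, against 5.2% of all genes. These were *Scd1* and *Acsl1*, lower after hyperoxia as were 2.52% of all genes, and *Angptl4*, higher as were 2.67%. The receptor itself, *Pparg*, stood at 13.7 ± 0.746 CPM (SD, n = 12 lungs), a spread no larger than counting error alone gives at its counts. CPM here are read counts divided by the normalized size of each library, on the usual CPM scale. The pairs of members that passed the adjusted threshold on correlation over the 12 lungs were *Cd36* with *Plin2*, *Lpl* with *Angptl4*, and *Acsl1* with *Scd1*. Around the group means some other pairs ran more closely than *Lpl* with *Angptl4* or *Acsl1* with *Scd1*, so these are not separate patterns.

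Libraries held 8763033 to 16741694 counts on genes, and 3 counts, taken as the smallest detectable level, corresponded to 0.191 to 0.327 CPM. These floors cover counting error only. The members had at least 43 counts in every lung. *Mir30a* had 0 counts in all 12 lungs, room air or hyperoxia. The precursor is short and such libraries catch it poorly, so this count does not check the genotype. *Xist* and *Ddx3y* matched the labelled sex in every lung. Reads on olfactory and vomeronasal receptor genes, most of which are known from sensory tissue, were used as an index of background. Lung cells can express single olfactory receptors, and such reads would be counted in the index too. These receptors took 0.410% to 0.945% of all counts, which is called the receptor share below. The highest shares were those of hyperoxia-exposed male 2 and room air male 1. The lungs carried the transcripts of lung tissue, with *Sftpc*, the surfactant protein of type 2 cells, at 1970.3 to 5233 CPM.

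The deleted microRNA is shown with its seed (bases 2 to 8) in capitals, because the absence of *miR-30a* is what all 12 lungs share. Both sequences are from RefSeq, build GRCm38.p6, plus strand of chromosome 1, at chr1:23272274-23272295 for the 5p arm and chr1:23272315-23272336 for the 3p arm.

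mmu-miR-30a-5p: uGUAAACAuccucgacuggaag
mmu-miR-30a-3p: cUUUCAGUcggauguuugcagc

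A match to the 5p seed (the letters TGTTTAC on the transcript strand) was searched for in the 3′ UTR of each member's principal transcript in GENCODE release 21. It was in 0 of the 10 members, and in 12.8% of 20831 coding genes with a 3′ UTR. This says only that the letters are not in these UTRs.

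Promoter windows of 300 bases, from 250 before to 50 after the start site, were given by RefSeq for 5 of the 10 members, in 8 windows. The windows of *Plin2* and *Cd36* are shown because these 2 transcripts ran together most closely, and the downstream window of *Acsl1* because the exposure groups of this member did not overlap on the CPM scale used here, although they did with TMM or DESeq2 size factors. Capitals mark the motifs named after the sequences. The windows lie at chr4:86670010-86670309 (*Plin2*, minus strand), chr5:17835847-17836146 (*Cd36*, minus strand) and chr8:46490716-46491015 (*Acsl1*, plus strand), all in GRCm38.p6, and are written 5′ to 3′ along the gene.

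Plin2: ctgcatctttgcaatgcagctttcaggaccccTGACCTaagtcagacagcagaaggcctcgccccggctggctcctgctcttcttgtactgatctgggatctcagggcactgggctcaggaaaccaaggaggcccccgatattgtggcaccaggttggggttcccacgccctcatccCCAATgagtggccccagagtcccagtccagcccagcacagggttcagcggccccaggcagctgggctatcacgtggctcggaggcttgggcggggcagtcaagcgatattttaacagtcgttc
Cd36: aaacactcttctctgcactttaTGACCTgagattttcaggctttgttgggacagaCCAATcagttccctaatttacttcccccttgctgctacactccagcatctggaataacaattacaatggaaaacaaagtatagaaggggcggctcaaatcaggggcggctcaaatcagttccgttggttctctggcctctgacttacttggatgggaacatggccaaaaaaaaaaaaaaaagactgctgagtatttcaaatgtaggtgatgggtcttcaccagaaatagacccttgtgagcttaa
Acsl1: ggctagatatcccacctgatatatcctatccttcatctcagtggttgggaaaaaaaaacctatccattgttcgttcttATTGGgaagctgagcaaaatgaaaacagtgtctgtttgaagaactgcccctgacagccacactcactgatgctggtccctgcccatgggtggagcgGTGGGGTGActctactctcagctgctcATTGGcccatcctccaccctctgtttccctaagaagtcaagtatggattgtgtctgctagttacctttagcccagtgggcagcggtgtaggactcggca

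The capitals TGACCT in the *Plin2* and *Cd36* windows are the motif AGGTCA read on the other strand. It is the core element that nuclear receptors such as PPAR-gamma recognise, and it began at position −218 from the start site in *Plin2* and at −228 in *Cd36*. On either strand this motif was in 16.3% of 32851 promoters. The direct repeat of this element with 1 base between the copies, AGGTCANAGGTCA, was in 0 of the members' windows and in 0.0396% of all promoters. Of the 3 windows of *Pparg*, 2 held the single element, at −28 and −9. The capitals CCAAT, or ATTGG on the other strand, are the box of the factor NF-Y and were in 37.4% of promoters. In the *Acsl1* window the capitals GTGGGGTGA are the sterol response element TCACCCCAC read on the other strand, at position −76. That motif was in 0.551% of promoters and in 1 of the 8 member windows. All motifs were searched on both strands, and a match is a description of letters, not of binding.

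Levels of different genes are compared as CPM per kilobase of the principal transcript. The order from the highest was *Scd1*, *Cd36*, *Plin2*, *Fabp5*, *Lpl*, *Acsl1*, *Fabp4*, *Angptl4*, *Pparg* and *Adipoq*. *Scd1* stood at 175 ± 67.3 CPM per kb (SD, n = 12 lungs) and *Adipoq* at 3.34 ± 0.649 CPM per kb. *Scd1* was above *Cd36*, at 137 ± 38.1 CPM per kb, in 9 of 12 lungs, and their ranges overlapped. *Cd36* was above *Plin2* (32.7 ± 6.58 CPM per kb) in all 12 lungs without overlap. *Fabp5* (23.1 ± 3.47 CPM per kb) and *Lpl* (22.7 ± 5.95 CPM per kb) did not differ beyond their spread and changed places in 5 lungs. *Fabp4* at 11.3 and *Angptl4* at 9.11 CPM per kb overlapped, as did *Angptl4* and *Pparg* at 7.73 CPM per kb, the former of each pair being higher in 9 of 12 lungs. *Fabp4* and *Pparg* did not overlap, but this order includes background. *Pparg* was above *Adipoq* in all 12 lungs without overlap. Background made up an estimated 0.815% of the counts of *Scd1*, 1.05% of those of *Cd36* and 7.36% of those of *Plin2*, but 26.2% for *Pparg*, 38.8% for *Adipoq* and 54.0% for *Fabp4*. The estimate for *Fabp4* rests on an annotation whose exons cover the whole gene, 4489 bases as 1 block, while its principal transcript has 896 bases. With the estimated background taken off, a step added after the values were seen, *Fabp4* fell below both *Angptl4* and *Pparg*, at 5.25 ± 1.71 against 7.83 ± 2.20 and 5.72 ± 0.718 CPM per kb (SD, n = 12), the 3 ranges overlapped, and *Lpl* and *Fabp5* changed places at 19.6 and 18.8 CPM per kb.

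**Figure D1:**
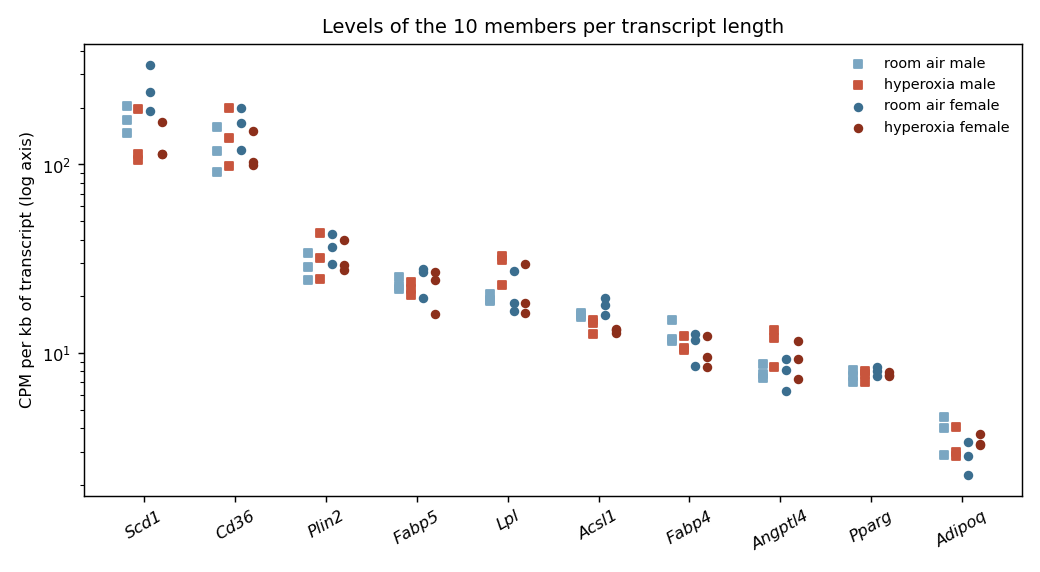
CPM per kilobase of principal transcript (log axis) for the 10 members, each point 1 lung, coloured by group and ordered by the mean over 12 lungs. *Scd1* and *Cd36* lie above the other members, *Adipoq* lies lowest, and the points of neighbours such as *Fabp5* and *Lpl* overlap.

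The nuclear receptor gene *Pparg* (ENSMUSG00000000440, chr6:115360951-115490399 of mm10, plus strand) had 114 to 223 counts per lung. It stood at 13.7, 12.4 and 14.3 CPM in hyperoxia-exposed males and at 14.4, 12.4 and 13.3 CPM in room air males. In females it stood at 13.5, 14 and 13.3 CPM after hyperoxia and at 14.8, 14.2 and 13.4 CPM in room air. The ranges of the 4 groups overlapped, and the highest lung was a room air female. The log2 fold change was −0.024 with the sexes averaged (SE, the standard error of the fit, 0.10, 95% interval −0.22 to 0.18), so that the interval lies inside a 1.5-fold change. Its log2 CPM had an SD of 0.084 within groups, and 0.709% of all genes tested, or 1.5% of the 21397 genes with at least 5 CPM, varied less. At 114 to 223 counts, counting error alone gives a spread at least this large, so the rank does not measure how steady the gene is. With the estimated background taken off, *Pparg* stood at 5.72 ± 0.718 CPM per kb (SD, n = 12 lungs), between 4.45 and 6.90, against 7.73 ± 0.422 before. Among all genes at 5 CPM or more, those whose log2 CPM followed *Pparg* most closely over the 12 lungs were *Thnsl1* (r = 0.913), *Acta2* (r = 0.854), the actin of smooth muscle, and *Gm28379* (r = 0.827). A gene, *Gm44079*, overlaps *Pparg* on the opposite strand without sharing exons.

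The other genes of the receptor complex, 18 genes for RXR, the other PPAR receptors, coregulators and C/EBP factors, had 0 genes called in any comparison. Their median log2 fold change was −0.073 with the sexes averaged, against 0.031 over all genes tested. In females 15 of 18 were below 0, against 39% of all genes, with a median of −0.26. In males 3 of 18 were below 0, against 52% of all genes, with a median of 0.096. The receptor share was 0.669% to 0.847% in hyperoxia-exposed females and 0.410% to 0.739% in room air females, and its part in this was not tested. The most abundant gene of the list was the corepressor *Ncor1*, at 231 CPM, with a log2 fold change of −0.12 (SE 0.18). With the sexes averaged and by unadjusted p, 0 were higher and 1 lower, against 2.67% and 2.52% of all genes. The lower gene was *Cebpb*, a factor that acts early in fat cell formation, with a log2 fold change of −0.46 (SE 0.14, adjusted p = 0.701, edgeR). It is named here after its values were seen.

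Among the genes for handling lipid outside the cell, *Lpl* (ENSMUSG00000015568, chr8:68880491-68907448, plus strand) encodes lipoprotein lipase, which frees fatty acids from triglyceride at the capillary wall. In males it stood at 135, 94.3 and 128 CPM after hyperoxia and at 77.7, 85.1 and 78.4 CPM in room air. In females it stood at 122, 66.8 and 75.8 CPM after hyperoxia and at 76.0, 112 and 69.0 CPM in room air. All 3 hyperoxia-exposed males thus lay above the 3 room air males, as was the case for 2.73% of all genes, while the female groups overlapped. The log2 fold change was 0.57 in males (SE 0.23, unadjusted p = 0.0213, adjusted p = 1.00, edgeR) and 0.041 in females (SE 0.23, adjusted p = 0.941). The difference between the sexes, −0.53 as female minus male (SE 0.33), did not pass the test (adjusted p = 0.581, edgeR). Once the receptor share entered the fit, *Lpl* was at 0.47 in males and 0.42 in females, and their difference was −0.052 (adjusted p = 1.00). Without that term, and with 1 lung left out, the difference ran from −0.85 without hyperoxia-exposed female 2 to −0.29 without room air female 5. In females the sign of *Lpl* also turned with single lungs left out, from −0.27 without hyperoxia-exposed female 2 to 0.29 without room air female 5.

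*Angptl4* (ENSMUSG00000002289, chr17:33773750-33781830, minus strand) encodes a secreted protein that inactivates lipoprotein lipase and is a classical PPAR target. It stood at 39.7, 28 and 43.9 CPM in hyperoxia-exposed males and at 25.6, 24.5 and 28.9 CPM in room air males. In females the values were 38.4, 24.1 and 30.6 CPM after hyperoxia and 20.7, 30.7 and 26.9 CPM in room air. Of the hyperoxia-exposed lungs, 1 of 3 in males and 2 of 3 in females lay within the range of the room air lungs of their sex. The log2 fold change with the sexes averaged was 0.38 (SE 0.13, 95% interval 0.12 to 0.63), with an unadjusted p of 0.00699 that did not survive adjustment (adjusted p = 0.896, edgeR). It was 0.50 in males (SE 0.18) and 0.25 in females (SE 0.18). Leaving out any 1 lung kept the averaged value above 0, while the female value ran from 0.064 without hyperoxia-exposed female 2 to 0.40 without hyperoxia-exposed female 4.

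*Lpl* and *Angptl4*, the enzyme and its inhibitor, ran together over the lungs (Pearson r = 0.842, permutation p = 0.00075, adjusted p = 0.00825 over the 55 relations computed). Spearman's rho was 0.762 (permutation p = 0.00565, adjusted p = 0.0621), and r was 0.700 without the 2 lungs farthest in *Lpl* and 0.788 around the group means. Of the genes with at least 5 CPM, 0.206% followed *Lpl* at least as closely as *Angptl4* did. The genes most like *Angptl4* were *Gm49492* (r = 0.922), *Acot1* (r = 0.910), an acyl-CoA thioesterase that is itself a PPAR target, and *Zbtb16* (r = 0.877). Those most like *Lpl* were *Thap3* (r = 0.949), *Tbx3os1* (r = 0.927) and *Gm28686* (r = 0.926).

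Around this pair, 14 further genes of the lipoprotein lipase system had 0 genes called, and their median log2 fold change was −0.0073 with the sexes averaged and 0.13 in males. *Gpihbp1*, which carries the lipase across the capillary endothelium, had a log2 fold change of −0.076 (SE 0.15). The most abundant gene of this list was *Pltp*, the phospholipid transfer protein, at 151 CPM. In females it had a log2 fold change of −0.54 (SE 0.26, adjusted p = 0.396, edgeR). The receptor share was 0.669% to 0.847% in hyperoxia-exposed females and 0.410% to 0.739% in room air females, and its part in this value was not tested.

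*Cd36* (ENSMUSG00000002944, chr5:17781690-17888801, minus strand) encodes the membrane fatty acid translocase of capillary endothelium and macrophages. It varied 2.18-fold between lungs. After hyperoxia it stood at 677, 332 and 472 CPM in males and 509, 339 and 348 CPM in females. In room air it stood at 310.4, 540.2 and 402 CPM in males and 564, 674 and 407 CPM in females. Every group held both high and low lungs. The log2 fold change was −0.11 with the sexes averaged (SE 0.22, adjusted p = 0.959), −0.46 in females (SE 0.31, adjusted p = 0.484) and 0.24 in males (SE 0.31, adjusted p = 1.00). The difference between the sexes was −0.70 (SE 0.44, adjusted p = 0.581, edgeR). With 1 lung left out the difference between the sexes ran from −0.94 without room air male 4 to −0.41 without hyperoxia-exposed male 1, and the female value from −0.68 without hyperoxia-exposed female 2 to −0.28 without room air female 5. Without hyperoxia-exposed male 1 the male value turned to −0.048. Once the receptor share entered the fit the female value turned to 0.12 and the averaged one to 0.10. The difference between the sexes became 0.032 with the receptor share in the fit, and with 1 RUVr factor, a term for unwanted variation taken from the residuals, it was −0.68 with an adjusted p of 1.6e-05.

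*Plin2* (ENSMUSG00000028494, chr4:86648386-86670060, minus strand) encodes perilipin 2, the coat of lipid droplets in cells other than fat cells. In males it stood at 81.4, 46.4 and 60.1 CPM after hyperoxia and at 46.1, 63.7 and 54.0 CPM in room air. In females it stood at 74.7, 51.9 and 55.5 CPM after hyperoxia and at 69.1, 81.1 and 56.3 CPM in room air. The exposure groups covered the same range, and the log2 fold change with the sexes averaged was 0.0094 (SE 0.15, 95% interval −0.28 to 0.30).

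From lung to lung *Plin2* followed *Cd36* closely (Pearson r = 0.955 and Spearman's rho = 0.972, each with a permutation p of 1e-05, the smallest that 100000 permutations can give, adjusted p = 0.000275). Around the group means r was 0.989, and without the 2 lungs farthest in *Plin2* it was 0.912. Of the genes with at least 5 CPM, 0.645% followed *Plin2* at least as closely as *Cd36* did. The lungs at the top for both were hyperoxia-exposed male 1 and room air female 5, and those at the bottom were hyperoxia-exposed male 2 and room air male 1. The receptor share ran the other way. It was 0.515% and 0.410% in the former and 0.945% and 0.900% in the latter, and over the 12 lungs its correlation was −0.938 with *Cd36* (permutation p = 1e-05, adjusted p = 0.000275) and −0.911 with *Plin2* (permutation p = 5e-05, adjusted p = 0.000917). Among genes with at least 5 CPM, 6.88% had a correlation with the receptor share at least as negative as *Cd36*, and 12.3% as *Plin2*. Endothelial markers (14 genes, led by *Ptprb*) summed to 2397 CPM in hyperoxia-exposed male 2 and 4941 CPM in room air female 5. Their part in the relation was not tested. The genes most like *Cd36* were *Rai1* (r = 0.991), *Pltp* (r = 0.990) and *Adgrf5* (r = 0.990), a receptor of endothelium and type 2 cells. Those most like *Plin2* were *Map2k7* (r = 0.985), *Stard8* (r = 0.982) and *Slc6a6* (r = 0.982).

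**Figure D2:**
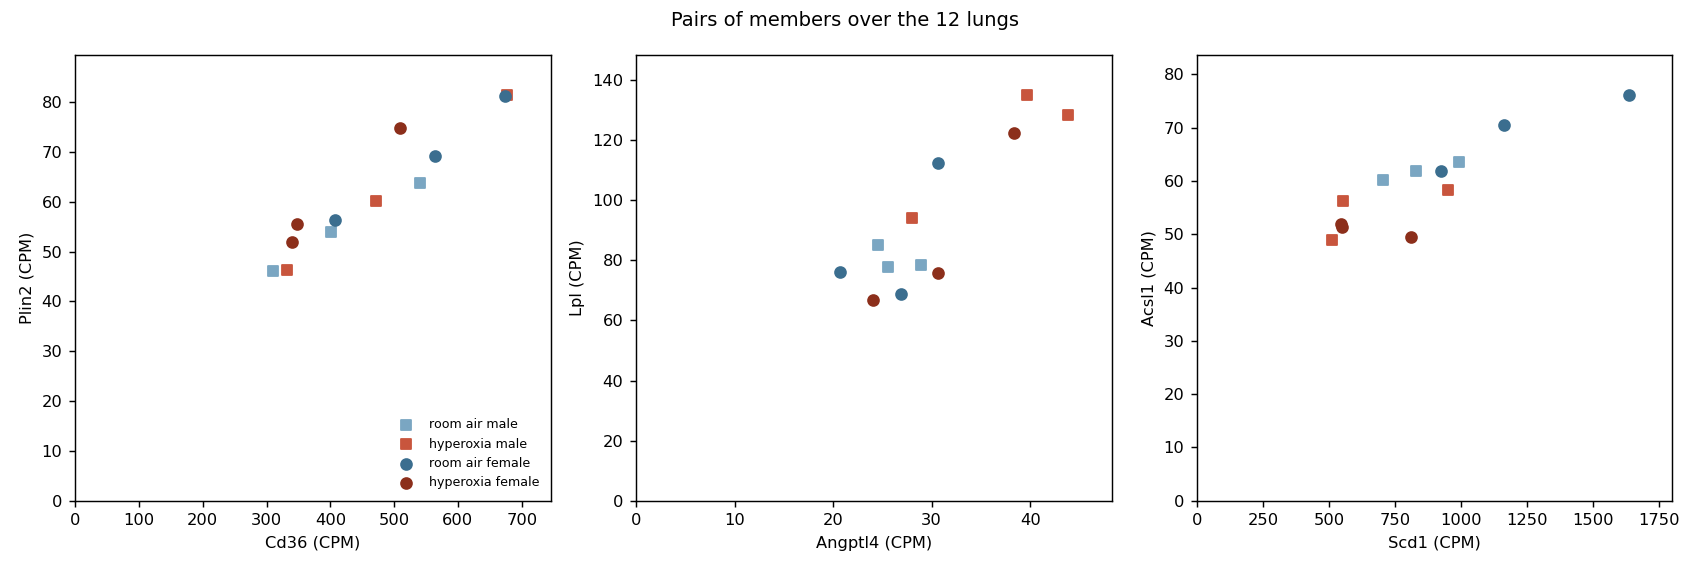
CPM of *Plin2* against *Cd36*, *Lpl* against *Angptl4* and *Acsl1* against *Scd1* in the 12 lungs, each point 1 lung, coloured by group. *Plin2* and *Cd36* lie on 1 line that all groups share (r = 0.955). In the last panel the hyperoxia-exposed lungs lie lower on the *Acsl1* axis but overlap the room air lungs on the *Scd1* axis.

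Inside the cell, *Fabp4* and *Fabp5* encode carriers that bind fatty acids in the cytosol, *Fabp4* being typical of fat cells, capillary endothelium and macrophages. *Fabp4* (ENSMUSG00000062515, chr3:10204088-10208576, minus strand) ranged from 7.59 to 11.1 CPM after hyperoxia and from 7.65 to 13.4 CPM in room air. The log2 fold change amounted to −0.16 (SE 0.13, adjusted p = 0.927, edgeR). It was −0.47 with background subtracted, and −0.095 without room air male 1 to −0.24 without hyperoxia-exposed female 5. *Fabp5* (ENSMUSG00000027533, chr3:10012548-10016607, plus strand) ranged from 15.8 to 26.4 CPM after hyperoxia and from 19.3 to 27.4 CPM in room air, with a log2 fold change of −0.11 (SE 0.12, adjusted p = 0.931) that ran from −0.19 without room air female 6 to −0.014 without hyperoxia-exposed female 5. The exposure groups overlapped for both. Most like *Fabp4* were *Prok1* (r = 0.875), *Ildr2* (r = 0.857) and *Mipep* (r = 0.855), and most like *Fabp5* were *AI467606* (r = 0.911), *Cd226* (r = 0.903) and *St8sia4* (r = 0.892). Of 19 further genes for uptake, binding and activation of fatty acids, 0 were called, with a median of −0.042. *Cav1*, the coat protein of caveolae, was the most abundant at 581 CPM and had a log2 fold change of −0.042 (SE 0.22).

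*Acsl1* (ENSMUSG00000018796, chr8:46471037-46536051, plus strand) encodes the acyl-CoA synthetase that activates long-chain fatty acids for use or storage. In females it stood at 51.4, 49.5 and 52.0 CPM after hyperoxia and at 70.5, 76.1 and 61.8 CPM in room air. In males it was at 58.3, 49.0 and 56.2 CPM after hyperoxia and at 61.8, 63.5 and 60.2 CPM in room air. The 6 hyperoxia-exposed lungs therefore all lay below the 6 room air lungs, at 52.7 ± 3.74 against 65.6 ± 6.27 CPM (SD, n = 6 each), as 0.12% of all genes did in this direction. The gap between the nearest lungs was 1.89 CPM. It was 2.93 CPM with total counts as the scale, but the lungs overlapped by 0.959 CPM with TMM and by 2.01 CPM with DESeq2 size factors, scales chosen after the values were seen. Within each sex the groups of 3 did not overlap either, as for 6.42% of all genes in females and 3.89% in males in this direction.

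The log2 fold change of *Acsl1* was −0.31 with the sexes averaged (SE 0.12, 95% interval −0.55 to −0.081), a fold of 0.805. Its unadjusted p was 0.0134 and its adjusted p 0.927 (edgeR). It was −0.45 in females (SE 0.17, adjusted p = 0.354) and −0.18 in males (SE 0.17, adjusted p = 1.00), where it was −0.10 without hyperoxia-exposed male 2 and −0.27 with background subtracted. The difference between the sexes was −0.27 (SE 0.24, adjusted p = 0.647), and −0.094 once the receptor share entered the fit. The averaged value stayed between −0.36 and −0.26 over all alternatives, and its adjusted p ran from 4.6e-05 with 2 RUVr factors to 1.00. None of them brought it past a 1.5-fold change. Within groups 2.07% of all genes, or 4.38% of those with at least 5 CPM, varied less (SD of log2 CPM 0.104). Exons of *Acsl1* overlap *Gm45244* on the opposite strand, and the strand setting of the counting is not given in the sources used here, so reads of both cannot be told apart. Most like *Acsl1* were *Prdx2* (r = 0.954), *Tmem71* (r = 0.948) and *Psmc4* (r = 0.947).

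*Scd1* (ENSMUSG00000037071, chr19:44394455-44407879, minus strand) encodes stearoyl-CoA desaturase, which makes monounsaturated fatty acids and is abundant in type 2 cells and fat. It stood at 549, 809.6 and 546 CPM in hyperoxia-exposed females and at 1164, 1637 and 925 CPM in room air females. In males it stood at 950.2, 511 and 551 CPM after hyperoxia and at 829.9, 992 and 706 CPM in room air. The female groups did not overlap, as for 6.42% of all genes in this direction, while in males 1 hyperoxia-exposed lung, male 1, lay above 2 of the 3 room air lungs. *Scd1* had the largest log2 fold change of the 10 members, −0.97 in females (SE 0.34, 95% interval −1.63 to −0.31), a fold of 0.511. Its unadjusted p was 0.0074, while 12.6% of all genes had a p under 0.05 in that comparison, and its adjusted p was 0.351 (edgeR). In males it was −0.33 (SE 0.33, adjusted p = 1.00) and with the sexes averaged −0.65 (SE 0.24, unadjusted p = 0.0104, adjusted p = 0.927). The male value was −0.66 without hyperoxia-exposed male 1, −0.16 without hyperoxia-exposed male 2, −0.20 without hyperoxia-exposed male 3 and −0.18 without room air male 4.

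The female difference in *Scd1* passed the threshold with DESeq2's Wald test (adjusted p = 0.0351) and with 1 or 2 RUVr factors (adjusted p = 0.034 and 0.0415). Once the receptor share entered the fit it was −0.49 (adjusted p = 0.908). The receptor share was 0.669% to 0.847% in hyperoxia-exposed females and 0.410% to 0.739% in room air females, and over the 12 lungs its correlation with *Scd1* was −0.780 (Spearman's rho −0.741, permutation p = 0.00263 and 0.0074, adjusted p = 0.0241 and 0.0678). Without the 2 lungs farthest in receptor share, r was −0.591. Among genes with at least 5 CPM, 28.45% had a correlation with the receptor share at least as negative as *Scd1*. Type 2 markers (11 genes, none at 0) summed to 6521 to 8390 CPM in hyperoxia-exposed females and 6932 to 13312 CPM in room air females. Their part in the difference was not tested.

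*Acsl1* and *Scd1* ran together (Pearson r = 0.867, permutation p = 0.00039, adjusted p = 0.00536, Spearman's rho = 0.874, permutation p = 0.00035, adjusted p = 0.00481). Around the group means r was 0.673, and without the 2 lungs farthest in *Acsl1* it was 0.736. Of the genes with at least 5 CPM, 0.921% followed *Acsl1* at least as closely as *Scd1* did. Genes much like *Scd1* were *Hsp90aa1* (r = 0.955) and *Cpq* (r = 0.954). Of the 45 pairs of members, the 3 pairs described here passed the adjusted threshold on Pearson's r. They are not separate patterns. Around the group means, *Lpl* also ran with *Plin2* (r = 0.845) and *Cd36* (r = 0.797). *Acsl1* ran with *Plin2* (r = 0.791), *Cd36* (r = 0.783) and *Lpl* (r = 0.711), and with the receptor share at −0.870.

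Of 16 other genes for fatty acid synthesis and desaturation, 0 were called. In females 12 had a log2 fold change below 0, the median was −0.34 against 0.11 over all genes tested, and 3 were lower at an unadjusted p under 0.05. Of all genes, 39% were below 0 and 5.28% were lower at that p in females. The receptor share was also higher in these hyperoxia-exposed females (0.669% to 0.847%, against 0.410% to 0.739% in room air), the median of the type 2 markers was −0.51, and the part of either in this list was not tested. *Fasn*, the fatty acid synthase, was the most abundant at 433 CPM and had a log2 fold change of −0.61 in females (SE 0.29, adjusted p = 0.391, edgeR) and 0.068 in males (SE 0.29). *Fads1*, a desaturase, at −0.58 (SE 0.22, adjusted p = 0.354), and *Me1*, the malic enzyme that supplies NADPH, at −0.45 (SE 0.17, adjusted p = 0.354), were the other 2 and are named after their values were seen. In males the median of these genes was 0.072 and 5 of 16 were below 0, against 52% of all genes.

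The 26 genes of fatty acid oxidation also had 0 called, with a median of −0.021. *Ucp2*, a mitochondrial carrier, was the most abundant at 317 CPM, at −0.27 (SE 0.19). Among 16 genes of lipid droplets and lipolysis 0 were called, with a median of −0.046. *Pnpla2*, the triglyceride lipase, was the most abundant at 68.6 CPM and had a log2 fold change of 0.054 (SE 0.15). By unadjusted p 2 genes were lower with the sexes averaged, *G0s2*, which inhibits that lipase, at −0.40 (SE 0.13, adjusted p = 0.841), and *Plin4*, a further perilipin, at −0.25 (SE 0.11, adjusted p = 0.927), both named after their values were seen. Over all genes 2.52% were lower in this way.

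**Figure D3:**
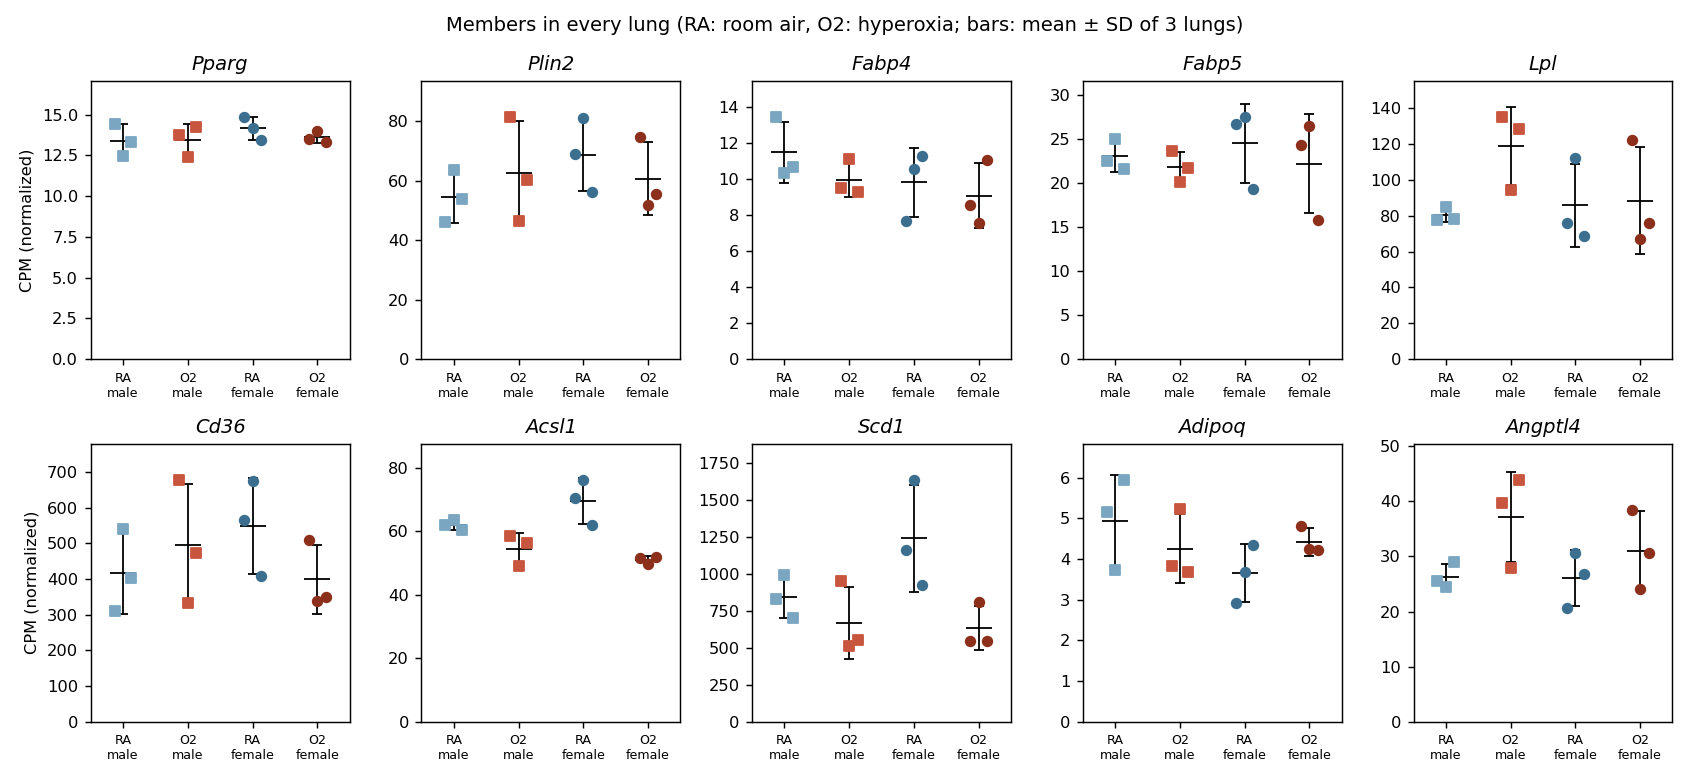
CPM of each member in every lung, by sex and exposure, each point 1 lung, with the mean and SD of 3 lungs as bars and each axis starting at 0. On this scale *Acsl1* is lower in every hyperoxia-exposed lung than in any room air lung, although with TMM or DESeq2 size factors the lungs overlap, *Lpl* is higher in hyperoxia-exposed than in room air males, and *Pparg* is level.

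**Figure D4:**
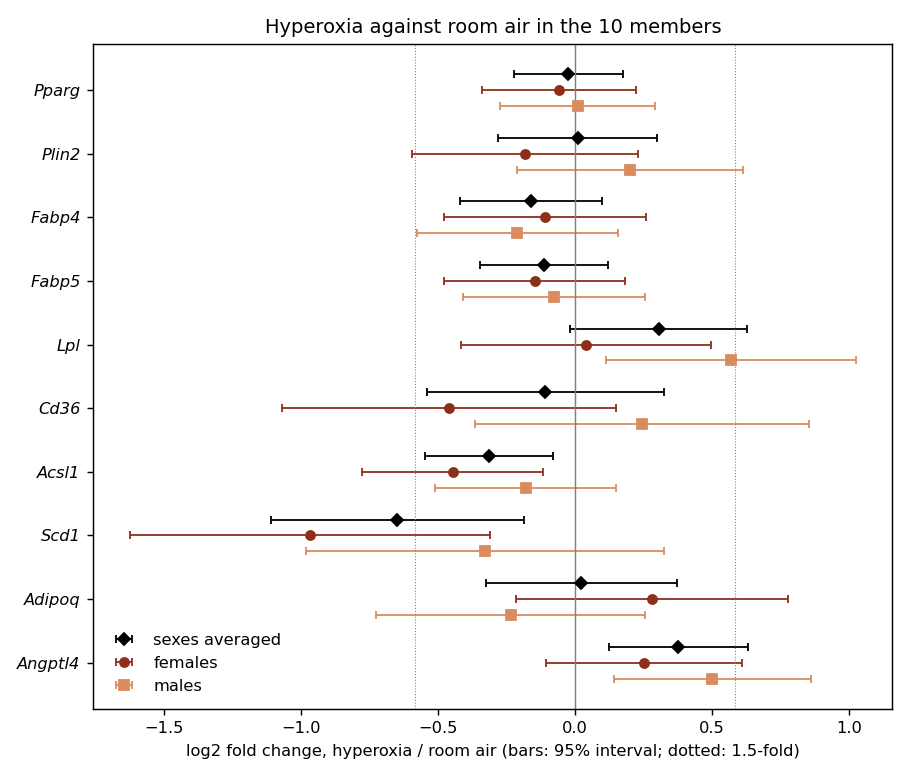
Log2 fold change of hyperoxia over room air in the 10 members, with the sexes averaged, in females and in males, with 95% intervals as bars and dotted lines at a 1.5-fold change. The averaged intervals of *Acsl1* and *Scd1* lie below 0 and that of *Angptl4* above 0, and none of the members passed the adjusted threshold.

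Fat can be sampled with lung, and *Adipoq* (ENSMUSG00000022878, chr16:23146536-23158028, plus strand), the hormone adiponectin made by fat cells, is the member that would mark it. It had 43 to 74 counts per lung. In males it stood at 3.84, 5.22 and 3.69 CPM after hyperoxia and at 5.15, 3.74 and 5.94 CPM in room air, and in females at 4.81, 4.24 and 4.21 CPM after hyperoxia and 2.91, 3.69 and 4.35 CPM in room air. No lung stood apart, the highest being room air male 5, and the log2 fold change was 0.023 (SE 0.18, adjusted p = 0.992, edgeR). The genes most like it were *Gm18929* (r = 0.936), *Gm15559* (r = 0.930) and *Cfap58* (r = 0.929), none of them a fat cell marker on the lists used here.

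The 15 other adipocyte markers summed to 208 to 259 CPM, a 1.25-fold range of the sum, with 0 genes at 0 in any lung and 0 called. By group the sums were 208 to 236 CPM in hyperoxia-exposed males, 214 to 259 CPM in room air males, 216 to 229.9 CPM in hyperoxia-exposed females and 229 to 246 CPM in room air females. The defining marker *Plin1*, the perilipin of fat cells, lay between 13.8 and 22 CPM, *Cidec* between 8.20 and 12.3, *Cfd* between 3.30 and 7.44, and *Lep*, leptin, between 6.65 and 12 CPM. Estimated background made up 32.3%, 23.3%, 22.7% and 44.7% of their counts. *Slc7a10* was the most abundant of the list, at 41.8 CPM. Brown fat markers (8 genes, led by *Otop1* at 10.6 CPM) summed to 37.0 to 61.1 CPM, and *Ucp1*, the uncoupling protein of brown fat, lay between 2.80 and 9.14 CPM with 44.6% background. Their median log2 fold change was 0.22, with 0 genes called. In females 4 of the 8 were higher by unadjusted p, *Otop1* (0.37, SE 0.17), *Dio2*, *Kng2* and *Elovl3*, with adjusted p from 0.365 to 0.393 (edgeR), the last 3 named after their values were seen, where 7.32% of all genes were higher at an unadjusted p under 0.05. The brown fat sum was lowest in room air female 5 and highest in hyperoxia-exposed male 2, the lungs of lowest and highest receptor share, and the part of background in it was not tested. With the adipocyte markers as a covariate, 0 members were called, and the averaged log2 fold changes were −0.27 for *Acsl1*, −0.60 for *Scd1* and 0.49 for *Angptl4*.

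Skeletal muscle did mark 1 library. The 12 muscle markers, led by *Acta1*, summed to 2084 CPM in room air male 1 and to 123 to 177 CPM in the other 11 lungs. In room air male 1 *Adipoq* was at 5.15 CPM, below room air male 5 and hyperoxia-exposed male 2. *Plin1* stood there at 21.0 CPM, *Cidec* at 9.05, *Cfd* at 5.73 and *Lep* at 10.05 CPM, all inside their ranges over the other lungs. *Lipe*, another fat marker, named after its values were seen, was lowest of the 12 in that lung, at 30.97 CPM. The adipocyte sum was the highest of the 12 there. *Fabp4* was also highest in that lung, at 13.4 CPM. Without room air male 1 and hyperoxia-exposed male 2, the 2 lungs with the highest receptor share, 0 members were called in any exposure comparison, and the averaged log2 fold changes were −0.27 for *Acsl1*, −0.57 for *Scd1* and 0.45 for *Angptl4*.

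**Figure D5:**
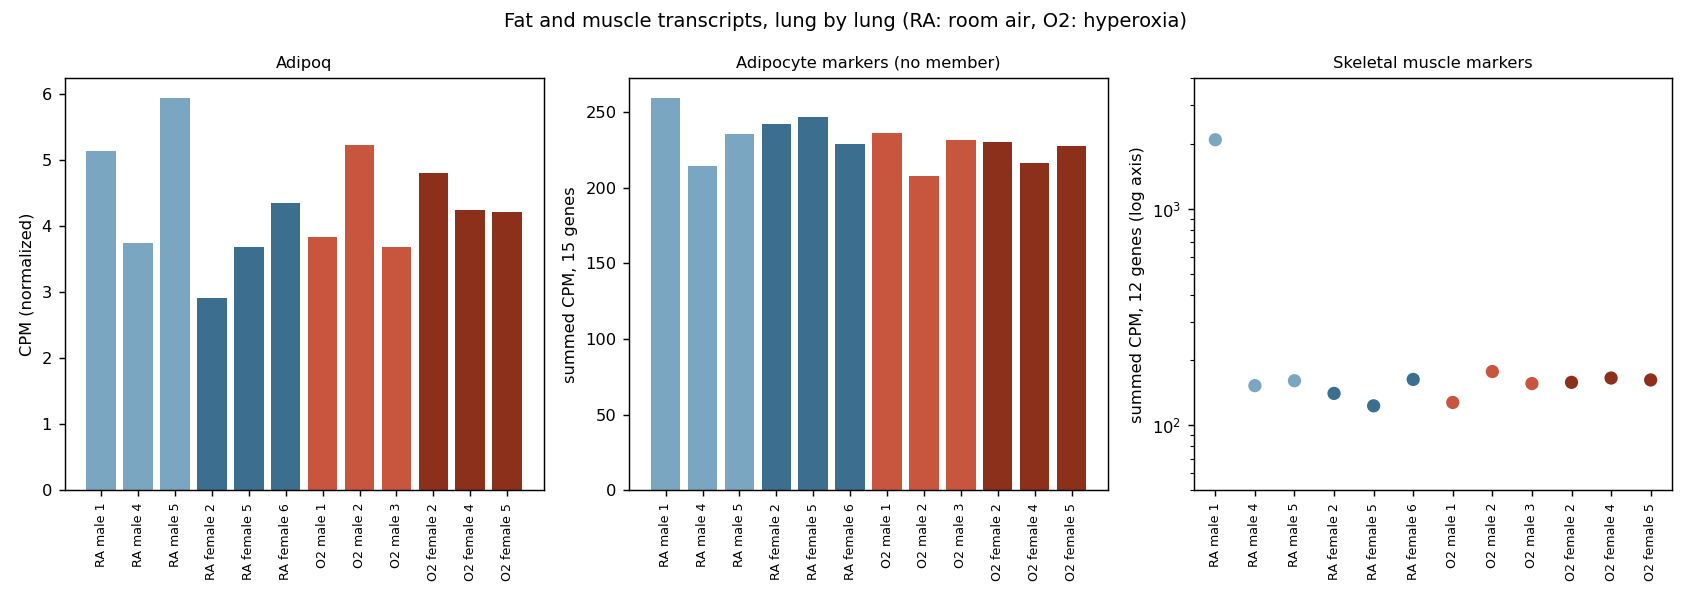
CPM of *Adipoq*, summed CPM of 15 adipocyte markers and summed CPM of 12 skeletal muscle markers (log axis) in each of the 12 lungs, coloured by group. *Adipoq* ranges from 2.91 to 5.94 CPM and the summed adipocyte markers from 208 to 259 CPM, whereas muscle transcripts reach 2084 CPM in room air male 1.

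In females 0 of the 10 members were called, where 0.00218% of all genes were, and 2 members were lower at an unadjusted p under 0.05, as were 5.28% of all genes. In males 0 members and 0 of all genes were called, and 2 members, *Lpl* and *Angptl4*, were higher at an unadjusted p under 0.05, as were 0.899% of all genes. The interaction of sex and hyperoxia called 0 members, as it called 0 of all genes, and 0 members had an unadjusted p under 0.05, against 8.46% of all genes. Its adjusted p ranged from 0.581 to 0.917 over the members, and 8 of 10 had a more negative change in females, against 41.4% of all genes. Several members ran together over the lungs, so these signs are not separate. Once the receptor share entered the fit, the difference turned to 0.16 for *Plin2*, 0.24 for *Fabp5* and 0.032 for *Cd36*, and to −0.10 for *Fabp4*. The other members kept their direction. Between females and males, with exposures averaged, 0 members were called, where 1.22% of all genes were. The largest such log2 difference was 0.24 for *Scd1*, higher in females (SE 0.24, adjusted p = 0.967, edgeR), and 0 members had an unadjusted p under 0.05, against 6.88% of all genes.

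Other cell types that use these genes were followed as marker lists, none with a gene called. Alveolar macrophage markers (16 genes, led by *Chil3* at 126 CPM), from cells that depend on PPAR-gamma, had a median log2 fold change of 0.031 and summed to 364 to 647 CPM. Lipofibroblast and alveolar fibroblast markers (10 genes, led by *Mfap4*) had a median of −0.024, endothelial markers −0.14 and type 2 markers −0.15. In females all 11 type 2 markers and all 14 endothelial markers had a log2 fold change below 0, with medians of −0.51 and −0.41. So did all 10 lipofibroblast and alveolar fibroblast markers, with a median of −0.21. Of all genes, 39% were below 0. The receptor share was 0.669% to 0.847% in these hyperoxia-exposed lungs and 0.410% to 0.739% in the room air females, and its part in the medians was not tested. In males the medians of these lists were 0.17 for type 2, 0.075 for endothelial and 0.15 for the fibroblast markers. The muscle list had a median log2 fold change of −1.87 in males, where room air male 1 is 1 of the 3 control lungs. Some genes stand on more than 1 list.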

How the data were processed

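RNA-Seq counts of 12 whole lungs were analysed, 3 per group of sex and exposure, with groups and animal numbers from the sample labels. Per the labels and the study's methods, the authors used Trim Galore on the reads, STAR for mapping to mm10 and featureCounts for counting, and the deposited values are raw counts for each gene, not normalized. The library kit is QIAseq Stranded Total RNA in the study's methods and NEBNext Ultra II Directional (rRNA depleted) in the labels. 0 value columns were left without a sample. Each library is 1 animal, and p-values measure the spread between these animals.

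Counts were fitted with edgeR 4.0.16 and limma 3.58.1 in R 4.3.3 (robust quasi-likelihood fit of 4 groups, upper-quartile normalization, 45828 genes kept by filterByExpr). The call needed an adjusted p (Benjamini-Hochberg) below 0.05 and more than a 1.5-fold change. Standard errors were derived from the log2 fold change and its F statistic, and intervals are at the 95% level from the normal distribution. Hyperoxia was set against room air in each sex and averaged, followed by their interaction and by sex. The 2 sexes' contrasts share no lung. The study also used ComBat-seq and RUVr. The batches and the number of RUVr factors are not given in the sources used here, so neither entered the fit. GENCODE release 21 matched 55227 genes. The background of a gene was its exon length times the median read density per kilobase over 1490 receptor genes. Correlations used log2 CPM (prior count 2) and 100000 two-sided permutations, adjusted over 55 relations (45 pairs of members and 10 with the receptor share).

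Named were all members, list genes called in any contrast (0), the most abundant gene of each list, *Plin1*, *Cidec*, *Cfd*, *Lep* and *Ucp1*, the 3 genes most like each member (results that need withheld items are not reported here), and *Mir30a*, *Xist* and *Ddx3y*. Others are marked. *Gpihbp1* is named for its role. The members and lists were chosen with earlier results of these data known. Replicates differed by more than sampling noise (chi-square over degrees of freedom 2.47 to 53.7). Alternatives were TMM, RUVr, DESeq2 1.42.0, other filters, the receptor share or adipocyte markers as covariates, background subtracted, only the 6 lungs compared, a replicate block, the adjusted p alone, and each lung left out. On simulated data of 45828 genes, 85 of 100 2-fold and 99 of 100 4-fold changes were recovered with the sexes averaged, and 55 and 95 in females. Figures were made with Python 3.11.15 and matplotlib 3.10.9.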

Additional observations from a re-analysis of the deposited data

Results flagged for a closer look

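*Lpl* in room air female 5, at 112 CPM, lay far from the other 5 room air lungs, which stood between 69.0 and 85.1 CPM. It was the only such value in 20 groups of 6 lungs (10 members in each exposure) checked for a lone high or low lung, and chance gives about 1 in 20 groups. Room air female 5 also had the highest *Scd1*, at 1637 CPM, and the lowest receptor share, 0.410%. Without this lung the log2 fold change of *Lpl* in females was 0.29.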

How the results depend on the processing

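With each lung left out in turn, 0 members were called in every comparison (range 0 to 0). Of 118 recomputed counts of called members, 113 equalled the main count of 0. The exceptions were in females, where 1 member was called with DESeq2 and with 1 or 2 RUVr factors (*Scd1* each time), and in the interaction, where 1 was called with 1 or 2 RUVr factors (*Cd36*, log2 difference −0.68, adjusted p down to 6.8e-06). The cause was not tested. *Acsl1* and *Cd36* in females and *Acsl1* averaged also had an adjusted p under 0.05 with RUVr, below the fold threshold, as did *Plin2* in the interaction, and *Acsl1* averaged did with the receptor share as a covariate (adjusted p = 0.048). The genes called over the whole table in females were 1 in the main fit, 1897 and 1965 with 1 and 2 RUVr factors, 89 with DESeq2, 8 without a filter, 22 with the receptor share, 0 with background subtracted or TMM, 2 with adipocyte markers, 80 with only the 6 lungs compared, 117 without the 2 lungs of highest receptor share (an alternative added after the data were seen) and up to 206 with 1 lung left out, the last without room air female 6. In males 0 became 18 and 107 with RUVr, 6 with the receptor share and 2 with only the 6 lungs. With the sexes averaged 19 became 86 and 125 with RUVr, 40 with DESeq2, 10 with background subtracted, and 3 to 37 with 1 lung left out, the extremes being without hyperoxia-exposed female 5 and male 1. The interaction called 2152 and 2332 genes with RUVr. Between the sexes 559 became 1006 and 1060 with RUVr, 1004 without a filter, 977 with the receptor share and 266 with 10 counts in every library. DESeq2 size factors shifted every log2 change by −0.095 in females and by −0.11 in the interaction. DESeq2 gave no adjusted p for *Adipoq* in females.

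Of 960 recomputed log2 fold changes of members, 897 kept their direction and side of the threshold, 5 newly passed it and 58 changed sign, none of a value that had been called. Averaged values that changed sign were, for *Pparg*, 0.035 with adipocyte markers as a covariate, 0.0057 with 10 counts in every library, 0.0035 with background subtracted and 0.035 without the 2 lungs of highest receptor share, for *Plin2* −0.030 with DESeq2, −0.0052 with TMM and −0.0056 without a filter, for *Adipoq* −0.019 with DESeq2, −0.054 with the receptor share and −0.037 without the 2 lungs, and for *Cd36* 0.10 with the receptor share. In females *Cd36* was 0.12, *Fabp5* 0.10 and *Plin2* 0.24 with the receptor share, *Plin2* 0.019 and *Pparg* 0.023 with background subtracted, *Pparg* 0.011 with adipocyte markers and 0.010 with 10 counts, and *Lpl* −0.068 with DESeq2 and −0.0018 without a filter. In males *Pparg* was −0.016 with background subtracted. In the interaction the receptor share gave 0.032 for *Cd36*, −0.10 for *Fabp4*, 0.24 for *Fabp5* and 0.16 for *Plin2*, background subtraction −0.18 for *Fabp4*, 0.10 for *Fabp5* and 0.039 for *Pparg*, the filter of 10 counts 0.0084 for *Fabp5* and 0.0091 for *Pparg*, and DESeq2 −0.014 for *Fabp4*. The gap of *Acsl1* became −0.959 CPM with TMM and −2.01 CPM with DESeq2 size factors.

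With 1 lung left out, averaged values ran from −0.045 to 0.0050 for *Pparg*, −0.11 to 0.099 for *Plin2*, −0.25 to 0.011 for *Cd36* and −0.054 to 0.10 for *Adipoq*. In females they ran from −0.27 to 0.29 for *Lpl* and −0.30 to 0.049 for *Fabp5*, in males from −0.031 to 0.072 for *Pparg*, −0.029 to 0.38 for *Plin2* and −0.048 to 0.48 for *Cd36*, and in the interaction from −0.067 to 0.20 for *Fabp4* and −0.22 to 0.13 for *Fabp5*. The animal numbers that groups share did not pair the lungs (correlation of deviations 0.19 and −0.33 in females and −0.49 in males). With the replicate block 0 members were called, 2 genes over the whole table with the sexes averaged and 451 in females, *Cd36* was 0.0014 averaged and *Fabp4* 0.15 in females. Males share 1 number, so no block was fitted there. In simulated data of the male comparison 51 of 100 2-fold changes were recovered with 4 false calls, so changes of that size can be missed at 3 lungs against 3. The simulation left out the variation that these lungs share, so real recovery may differ. The low counts of *Adipoq* and the background share of *Fabp4* limit what can be seen in these members.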
